A study of Mus musculus with 5 samples.

Results

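Neutrophil granule genes encode the antimicrobial proteins that neutrophils, the phagocytes of acute inflammation, make in waves as they mature in the bone marrow. The 10 genes described here were chosen by symbol from a table of 48440 genes, as primary granule genes (Mpo, Elane, Prtn3 and Ctsg), secondary granule genes (Camp, Ngp, Ltf and Lcn2) and cytosolic genes (S100a8 and S100a9), and no measured value was used in the choice. They were measured in RNA of splenic CD4+CD25+ regulatory T cells (Tregs) that were freshly isolated with magnetic beads and left untreated. Of the 5 libraries, 3 came from CD4-KLF10-KO mice (KO), in which the labels place the loss of the transcription factor KLF10 in CD4 T cells, and 2 from wild-type mice (WT). All mice were C57B/6 and received a high-fat diet, and the sources used here do not give their age, their sex or the driver of the deletion. Nothing in the labels says that the libraries come from separate animals, and p-values here cover only the spread between the 5 libraries, which may be technical.

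Granules are filled in order of maturation. Primary (azurophil) granule proteins are transcribed in promyelocytes, secondary (specific) granule proteins at the following stage, and the calcium-binding pair S100A8 and S100A9 fills the cytosol of mature neutrophils. Mature neutrophils have largely shut off transcription of the primary granule genes, and the spleen of the mouse holds both mature neutrophils and granulopoietic precursors. Tregs are not known as a source of these proteins.

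The genes of each wave lie close together in part. Prtn3 (chr10:79874476-79883174) and Elane (chr10:79886312-79888216) are neighbours on the plus strand of chromosome 10, 3.14 kb apart with 0 genes of the table between them. S100a8 (chr3:90668978-90670035) and S100a9 (chr3:90692632-90695721) face each other on opposite strands, 22.6 kb apart. Camp, Ngp and Ltf lie on chromosome 9 between 109847379 and 111042767 with 22 and 29 other genes between them, Mpo lies on chromosome 11 from 87793581 to 87804413, Ctsg on chromosome 14 from 56099881 to 56102574 and Lcn2 on chromosome 2 from 32384633 to 32388252 (deposited coordinates, GRCm38). Each is annotated as protein-coding in GENCODE M21.

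Promoter sequences of all 10 genes were found in RefSeq (GRCm38.p6), and 4 of them are shown because they cover each wave and reach at most 21 bases into the deposited gene. Each line gives the 250 bases before the RefSeq start, 5′ to 3′ on the strand of the gene. Capitals mark matches, on either strand, to TTGCNNAA (the C/EBP family), GAGGAA (PU.1) or AACTG (MYB), letters chosen for factors known from granulocyte development.
Elane, chr10:79886062-79886311, plus strand: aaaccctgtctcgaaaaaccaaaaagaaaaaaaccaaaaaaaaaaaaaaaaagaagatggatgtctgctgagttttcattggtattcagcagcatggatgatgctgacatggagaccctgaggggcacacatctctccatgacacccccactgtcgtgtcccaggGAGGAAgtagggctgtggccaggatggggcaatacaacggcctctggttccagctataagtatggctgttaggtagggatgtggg
Ctsg, chr14:56102575-56102824, minus strand: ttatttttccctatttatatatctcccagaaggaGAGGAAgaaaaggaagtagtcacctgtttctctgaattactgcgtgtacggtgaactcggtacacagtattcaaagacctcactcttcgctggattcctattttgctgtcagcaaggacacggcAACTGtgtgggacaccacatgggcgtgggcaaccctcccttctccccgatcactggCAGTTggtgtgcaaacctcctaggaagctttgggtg
Ltf, chr9:111019042-111019291, plus strand: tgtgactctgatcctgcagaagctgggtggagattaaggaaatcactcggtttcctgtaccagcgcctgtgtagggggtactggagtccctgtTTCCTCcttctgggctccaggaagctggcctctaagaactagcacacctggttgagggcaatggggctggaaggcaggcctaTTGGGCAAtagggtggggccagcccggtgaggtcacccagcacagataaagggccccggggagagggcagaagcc
S100a9, chr3:90695722-90695971, minus strand: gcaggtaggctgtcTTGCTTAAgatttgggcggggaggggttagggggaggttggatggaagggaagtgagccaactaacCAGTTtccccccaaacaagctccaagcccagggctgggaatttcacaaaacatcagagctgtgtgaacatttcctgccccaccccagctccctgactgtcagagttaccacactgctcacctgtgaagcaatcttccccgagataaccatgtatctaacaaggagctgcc
All 4 primary granule promoters held GAGGAA, as did 3 of the other 6, against 23.3% of 32851 promoter windows of this length. TTGCNNAA was found in Ngp, Ltf, Lcn2 and S100a9 and in no primary granule promoter, against 9.56% of all windows. AACTG was found in 6 of 10, against 39.1% of all windows. These counts include windows that lie partly or wholly inside the deposited gene. All 250 bases did so for Prtn3 and Lcn2, 203 for Mpo, 161 for Camp, 93 for S100a8 and 61 for Ngp. A match describes letters and not a bound site, and binding was not measured.

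The libraries held between 25622614 and 30521797 counts, and 14460 genes passed the filter on low counts. Klf10 itself had 408, 331 and 271 counts in the KO libraries and 668 and 588 counts in the WT libraries, so transcripts of the targeted gene were lower in each KO library but present (log2 fold change −0.84, SE 0.22, edgeR adjusted p = 0.136). The Treg transcription factor gene Foxp3 lay between 474 and 489 CPM (counts per 1000000, scaled by TMM) in KO and between 476 and 577 CPM in WT, so the defining factor of the labelled cell type was present in each. The granule genes were a trace in these preparations. Together they took 0.0186%, 0.0205% and 0.00544% of all counts in KO libraries 1, 2 and 3, and 0.00982% and 0.0146% in WT libraries 1 and 2. In such bulk samples fewer cells of a type and less RNA per cell cannot be told apart.

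Measured per transcript length, the order of the members ran opposite to the order of maturation. In all 5 libraries the TPM levels (length-normalised, as deposited by the authors) had the order S100a9, S100a8, Ngp, Camp, Ltf and Lcn2, followed by the 4 primary granule genes. S100a9 reached 278 TPM in its highest library and 89.6 TPM in its lowest, and Lcn2 11.6 and 2.90 TPM. Mpo led the primary granule genes in 4 of the 5 libraries, with Elane above it in WT library 1, and the order of Elane, Prtn3 and Ctsg differed between libraries. Those 3 genes had at most 49 counts in any library, so their order is not resolved.

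The primary granule genes were several-fold higher in KO libraries 1 and 2 than in WT, and KO library 3 lay among the WT libraries. Mpo, the peroxidase that makes hypochlorous acid, was at 8.49, 6.73 and 1.15 CPM in KO libraries 1, 2 and 3, and at 0.891 and 1.65 CPM in WT libraries 1 and 2. Its counts were 217, 177 and 35 in KO and 27 and 43 in WT, so the groups overlapped through KO library 3. Elane, the serine protease neutrophil elastase, was at 1.64, 1.41 and 0.131 CPM in KO and at 0.297 and 0.0768 CPM in WT. The lowest Elane values rest on 4 counts in KO library 3 and 2 counts in WT library 2. Prtn3, the related serine protease proteinase 3, was at 1.92, 1.82 and 0.393 CPM in KO and at 0.363 and 0.461 CPM in WT. Ctsg, the serine protease cathepsin G, was at 1.13, 0.874 and 0.262 CPM in KO and at 0.0990 and 0.307 CPM in WT. For each of the 4 genes KO library 3 lay between the WT libraries, while KO libraries 1 and 2 lay above both. The sum of the 4 genes was 13.2, 10.8 and 1.93 CPM in KO and 1.65 and 2.49 CPM in WT, which put KO libraries 1 and 2 at 6.36 and 5.23 times the WT mean and KO library 3 at 0.932 times.

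None of these differences passed the test over all genes. Mpo averaged 5.45 ± 3.83 CPM in KO (SD, n = 3) and 1.27 ± 0.537 CPM in WT (SD, n = 2), a log2 fold change of 2.10 with an SE of 0.83 (quasi-likelihood test of edgeR, Benjamini-Hochberg adjusted p = 0.286). Elane had a log2 fold change of 2.41 with an SE of 1.10 (edgeR adjusted p = 0.349), Ctsg one of 1.89 with an SE of 0.79 (edgeR adjusted p = 0.310) and Prtn3 one of 1.72 with an SE of 0.72 (edgeR adjusted p = 0.310). The order of the 4 is not resolved, since the value of Elane was 3.69 without WT library 1 and 1.80 without WT library 2, and that of Ctsg 1.27 and 2.86. For each gene the KO libraries spread widely, with KO library 3 far below the other KO libraries. Elane and Ctsg entered the test only through KO, since in WT 0 libraries reached the level of 0.372 CPM that the filter asks of 2 libraries, and Prtn3 reached it in 1 WT library. Reads could also come from genes on the other strand, as the sources used here do not give the strand setting of the counting. Plppr3 overlaps Prtn3 on the opposite strand and had 335, 332 and 399 counts in KO and 500 and 364 in WT, and the antisense gene Gm11505, which overlaps Mpo, had at most 1 count.

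**Figure D1:**
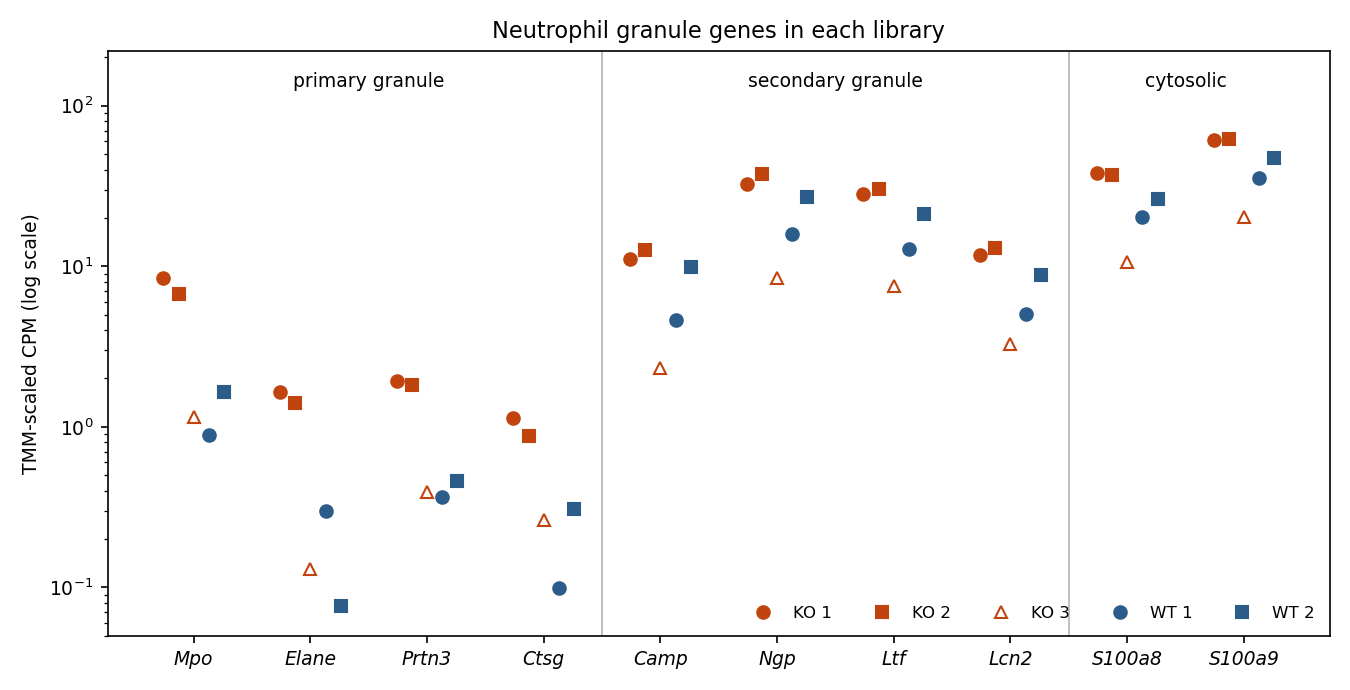
Scaled CPM (log axis) of each of the 10 granule genes in the 3 KO and 2 WT libraries, 1 point a library, grouped by granule class. KO libraries 1 and 2 lie above both WT libraries for all 10 genes, and KO library 3 (open triangles) lies lowest of all for the 4 secondary granule and the 2 cytosolic genes.

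The highest and the lowest values of the secondary granule genes both came from KO libraries. Camp, the cathelicidin antimicrobial peptide, was at 11.2, 12.7 and 2.32 CPM in KO libraries 1, 2 and 3, and at 4.62 and 9.86 CPM in WT libraries 1 and 2. Ngp, a cathelicidin-related neutrophilic granule protein, was at 32.4, 37.8 and 8.45 CPM in KO and at 15.9 and 27.1 CPM in WT. Ltf, the iron-binding lactoferrin, was at 28.1, 30.3 and 7.56 CPM in KO and at 12.9 and 21.1 CPM in WT. All of them had the same order of libraries, with KO library 2 highest, then KO library 1, WT library 2, WT library 1 and KO library 3. Lcn2, the siderophore-binding lipocalin 2, kept that order at 11.8, 13.1 and 3.27 CPM in KO and 5.01 and 8.83 CPM in WT. The sum of the 4 genes in KO libraries 1, 2 and 3 was 1.58, 1.78 and 0.410 times the WT mean, and WT library 2 stood at 1.75 times WT library 1. Their log2 fold changes lay between 0.27 for Camp (SE 0.68, edgeR adjusted p = 0.891) and 0.44 for Lcn2 (SE 0.57, edgeR adjusted p = 0.763), each smaller than its SE.

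The cytosolic pair followed the secondary granule genes. S100a8, a subunit of calprotectin, was at 38.0, 36.9 and 10.7 CPM in KO and at 20.3 and 26.2 CPM in WT. S100a9, its partner, was at 61.5, 62.2 and 20.1 CPM in KO and at 35.6 and 47.4 CPM in WT. Both were highest in KO libraries 1 and 2 and lowest in KO library 3. S100a8 averaged 28.5 ± 15.5 CPM in KO (SD, n = 3) and 23.2 ± 4.22 CPM in WT (SD, n = 2), and S100a9 48.0 ± 24.1 CPM in KO and 41.5 ± 8.35 CPM in WT, with log2 fold changes of 0.29 (SE 0.51, edgeR adjusted p = 0.826) and 0.21 (SE 0.46, edgeR adjusted p = 0.872). The pair kept nearly the same ratio everywhere. S100a9 made 61.8%, 62.8% and 65.4% of the counts of the pair in KO libraries 1, 2 and 3, and 63.7% and 64.4% in WT libraries 1 and 2, with 95% Wilson intervals (counting error only) that span 59.9% to 68.3%.

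Over all 10 genes, 0 were called by edgeR at a false discovery rate of 0.05, where 0.284% of all tested genes were called, and 0 by DESeq2, which called 7.35% of the genes it tested. At an unadjusted p under 0.05, 1 of 10 members was higher in KO (Mpo), close to the 10.7% of all genes. In 0 of the 10 did the KO libraries all lie above the WT libraries, as they did for 17.6% of all genes. The median log2 fold change was 0.40 over the 10 members and −0.01 over all genes tested. KO libraries 1 and 2 each lay above both WT libraries for 10 of 10 members, a pattern found in 23.2% of all genes, and KO library 3 was the lowest of the 5 libraries for 6 of 10, against 17.4% of all genes. Both patterns were looked for after the values had been seen, and members expressed by the same cells are not independent of each other.

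Without KO library 3, whose low values widen the KO spread, the fitted changes were larger and their SEs smaller. Still 0 of 10 members were called (0.0771% of all genes were). Mpo then had a log2 fold change of 2.60 (SE 0.33, edgeR adjusted p = 0.0772), Elane of 2.96 (SE 0.55, edgeR adjusted p = 0.0898) and S100a8 of 0.70 (SE 0.14, edgeR adjusted p = 0.0924). In that setting 9 of 10 members were higher in KO at an unadjusted p under 0.05, against 11.1% of all genes, with Camp the exception. Leaving out any other library gave 0 members at that level. KO library 3 is the library in which the members were low, so its omission shows how far the comparison rests on it and is no independent estimate.

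**Figure D2:**
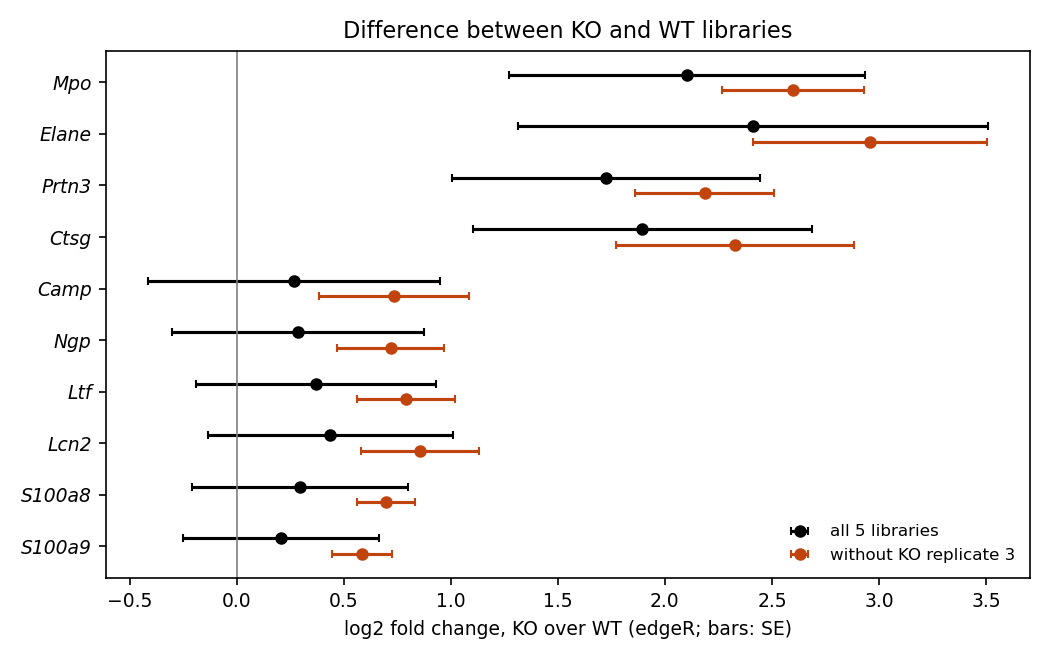
Log2 fold change of each granule gene in KO over WT from the edgeR fit, with bars for the SE, for all 5 libraries (black) and without KO replicate 3 (orange). The 4 primary granule genes lie between 1.72 and 2.41 with all libraries, and the 6 other genes between 0.21 and 0.44.

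The balance between primary and secondary granule transcripts separated the groups where the levels did not. Of the counts of the 8 primary and secondary granule genes, the primary granule genes made 13.7%, 10.4% and 8.21% in KO libraries 1, 2 and 3, and 4.12% and 3.59% in WT libraries 1 and 2. The mean was 10.7 ± 2.74% in KO (SD, n = 3) and 3.86 ± 0.374% in WT (SD, n = 2). These shares come from 337 of 2469, 285 of 2754 and 59 of 719 counts in KO, and from 50 of 1213 and 65 of 1809 counts in WT. The 95% Wilson intervals, which cover counting error only, ran down to 6.42% in KO library 3 and up to 5.39% in WT library 1, so each KO share lay above both WT shares beyond counting error. The share does not depend on how libraries are scaled to each other. On the deposited TPM scale the ratio of the summed primary to the summed secondary granule genes was 0.121, 0.0882 and 0.0719 in KO and 0.0361 and 0.0255 in WT, in the same order.

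Mpo had the most counts of the 4 primary granule genes in this share. It stood at 10.2%, 7.17% and 5.30% of the summed counts of the 4 secondary granule genes in KO libraries 1, 2 and 3, and 2.32% and 2.47% in WT libraries 1 and 2. On the same scale Prtn3 stood at 2.30%, 1.94% and 1.82% in KO and 0.946% and 0.688% in WT, and Ctsg at 1.36%, 0.932% and 1.21% in KO and 0.258% and 0.459% in WT. For these 3 genes every KO library lay above both WT libraries, which on this scale held for 2.11% of all genes tested. The secondary granule gene Lcn2, itself part of the sum, did so too, at 14.1%, 13.9% and 15.2% in KO and 13.1% and 13.2% in WT. Ngp, also part of the sum, lay lower in every KO library. The summed secondary granule counts were 2132, 2469 and 660 in KO and 1163 and 1744 in WT, so the 2.11% depends on this denominator. It is no like background for genes that rise and fall with that sum. Ctsg, with 3 and 8 counts in WT, also passed the filter only through KO. Elane overlapped, at 1.97%, 1.499% and 0.606% in KO and 0.774% and 0.115% in WT. The share was formed after the values had been seen and carries no test.

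**Figure D3:**
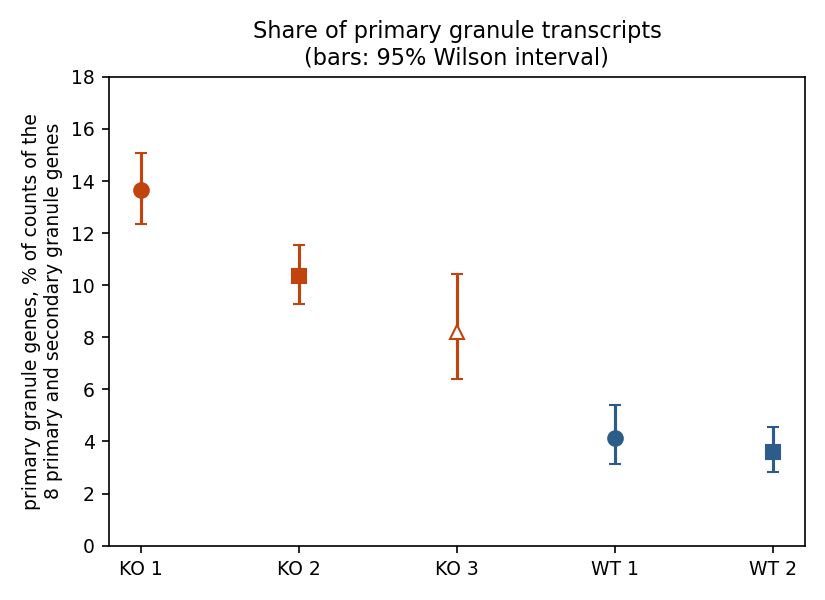
Primary granule genes as a percentage of the counts of the 8 primary and secondary granule genes in each library, with 95% Wilson intervals for counting error. The 3 KO libraries lie between 8.21% and 13.7%, above the WT libraries at 4.12% and 3.59%.

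Other genes of neutrophils and their precursors were taken from 4 further lists. Of 50 genes analysed, 44 were tested, and 1 was called higher and 0 lower in KO, where 0.284% of all genes were called. At an unadjusted p under 0.05, 9 of the 44 were higher (20.5%, against 10.7% of all genes) and 1 was lower, and in 11 all KO libraries lay above the WT libraries (17.6% of all genes). The called gene was Cebpa. Cebpa, the transcription factor that starts granulocyte commitment and is also used by macrophages, rose to 33.9 ± 2.08 CPM in KO (SD, n = 3), against 19.0 ± 1.30 CPM in WT (SD, n = 2), 1.78-fold (log2 fold change 0.83, SE 0.09, edgeR adjusted p = 0.0445). It stood at 31.6, 35.6 and 34.5 CPM in KO libraries 1, 2 and 3, so KO library 3 was not apart for this gene. The call was lost without KO library 2 or 3 or either WT library (edgeR adjusted p from 0.0731 to 0.157). The 9 granulopoiesis factors had a median log2 fold change of 0.20, the 15 other granule genes tested 0.14, the 14 surface proteins 0.27 and the 6 phagocyte oxidase genes −0.02. Lymphocytes and macrophages also express many genes of these lists, among them the most abundant ones. The proteoglycan gene Srgn was at 379.7 ± 6.43 CPM in KO and 384.6 ± 46.9 CPM in WT, the lysozyme gene Lyz2 at 163 ± 13.6 CPM in KO and 122 ± 10.3 CPM in WT (edgeR adjusted p = 0.0931), and the protease gene Ctsc, whose product activates granule serine proteases, at 134 ± 23.2 CPM in KO and 121 ± 19.1 CPM in WT. The antiprotease gene Slpi was at 92.8 ± 21.8 CPM in KO and 55.7 ± 24.2 CPM in WT (edgeR adjusted p = 0.294). Among surface proteins, the integrin gene Itgb2 was at 445.2 ± 8.72 CPM in KO and 456 ± 33.3 CPM in WT. Csf3r, the receptor of the granulocyte growth factor G-CSF, was at 29.6 ± 7.97 CPM in KO and 26.0 ± 4.84 CPM in WT, and the decoy receptor gene Il1r2 at 18.4 ± 3.41 CPM in KO and 10.4 ± 0.846 CPM in WT (edgeR adjusted p = 0.0851). Among the phagocyte oxidase genes, Rac2 and Ncf4 were at 849 ± 28.9 and 129 ± 8.03 CPM in KO and at 917 ± 22.4 and 128 ± 12.4 CPM in WT. Cyba and Cybb were at 238 ± 12.5 and 184 ± 29.2 CPM in KO and at 238 ± 20.1 and 189 ± 24.3 CPM in WT.

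KO library 3 was the lowest of the 5 libraries for 17 of the 44 tested genes of these lists (38.6%, against 17.4% of all genes) and the highest for 3. The genes that follow are named after their values were seen. Cebpe, the factor required for secondary granules, had 29, 23 and 1 counts in KO libraries 1, 2 and 3, and 11 and 10 counts in WT libraries 1 and 2. Ly6g, the surface antigen of mouse neutrophils, had 15, 14 and 0 counts in KO and 12 and 14 counts in WT, so both were lowest in KO library 3. Fpr1, a receptor for bacterial formyl peptides, was highest there, at 1.88, 3.15 and 3.96 CPM in KO and 1.25 and 1.30 CPM in WT, and Il1r2 was likewise highest in KO library 3 at 21.9 CPM. Ms4a3 and Prss57, genes of granulocyte precursors, had at most 7 counts in any library and were not tested, a depth at which no difference could be shown. Myb, a factor of precursors of several blood lineages, was at 129, 72.1 and 51.0 CPM in KO and 39.4 and 38.9 CPM in WT (log2 fold change 1.10, SE 0.37, edgeR adjusted p = 0.211).

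Likeness of pattern was measured as the root mean square difference of log2 CPM, centred over the 5 libraries, from the mean profile of each granule class, among 11419 other protein-coding genes. The closest genes to the secondary granule class were Retnlg, a resistin-like protein of neutrophils, Chil3, a chitinase-like secretory protein, and Cd177, a neutrophil surface protein, at 0.20, 0.21 and 0.21 log2 units, where the median candidate lay at 0.81. Retnlg was at 4.66, 4.67 and 1.41 CPM in KO and 2.67 and 3.80 CPM in WT. The closest to the cytosolic pair were Retnlg, the collagen receptor gene Ddr1 and the chitinase-like gene Chil1, at 0.06, 0.07 and 0.12 log2 units. The closest to the primary granule class were more distant and of low level. They were Lrrc10b, Slc26a1 and Egfl6 at 0.36, 0.41 and 0.44 log2 units, with Lrrc10b at 90, 43 and 17 counts in KO and 8 and 11 counts in WT. The primary granule genes themselves lay at 0.17 (Prtn3) to 0.55 (Elane) log2 units from their mean profile, so that profile is loosely defined. With 5 libraries such likeness is a description only.

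By summed level the macrophage, monocyte, erythroid, Treg and pan-T cell marker lists separated the KO from the WT libraries. All 14 macrophage markers had every KO library above both WT libraries, against 17.6% of all genes. By edgeR 3 of 14 were called, against 0.284% of all genes. Their summed level was 1134 to 1472 CPM in KO and 447 to 687 CPM in WT. The 12 erythroid markers summed to 55826 to 91943 CPM in KO and 14694 to 20647 CPM in WT, and were highest in KO library 1. Every KO library lay above both WT libraries in 12 of 12, against 17.6% of all genes. By edgeR 0 were called, and 11 were higher at an unadjusted p under 0.05, against 10.7% of all genes. The 8 monocyte markers summed to 374 to 484 CPM in KO and 233 to 269 CPM in WT. Csf1r was the largest term of that sum in each library, at 268, 351 and 282 CPM in KO and 138 and 92.1 CPM in WT. The sum therefore does not speak for the list. Of its 8 log2 fold changes 5 lay above 0 and 3 below, with a median of 0.09. In 3 of the 8 every KO library lay above both WT libraries, against 17.6% of all genes, 2 lay below and 3 overlapped. The 8 B cell markers summed to 2928 to 3018 CPM in KO and 2500 to 3612 CPM in WT. The 12 markers of eosinophils, basophils and mast cells, which include granule proteins of those cells, summed to 28.2 to 41.3 CPM in KO and 23.5 to 47.2 CPM in WT, and 2 of the 12 were at 0 in KO library 3 and 2 in WT library 1. The 14 pan-T cell markers ran the other way and separated the groups as well, at 2872 to 2982 CPM in KO and 3303 to 3873 CPM in WT. Of their log2 fold changes 14 of 14 lay below 0, where 46.7% of all genes lay above 0, and 0 were called by edgeR. At an unadjusted p under 0.05, 10 were lower, as were 813 of 14460 genes. In 11 the groups did not overlap. The share of all genes lower without overlap was not taken, so nothing is read from this count or from the 2 monocyte markers below. The 10 Treg markers summed to 2145 to 2172 CPM in KO and 2181 to 2768 CPM in WT, so each KO sum lay below both WT sums, narrowly for WT library 2. KO library 3 was near the other KO libraries in the macrophage, B cell and Treg sums and apart from them in the granule genes. In the erythroid sum it was near KO library 2, and both lay below KO library 1. The part of other cells in the granule gene values was not tested.

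**Figure D4:**
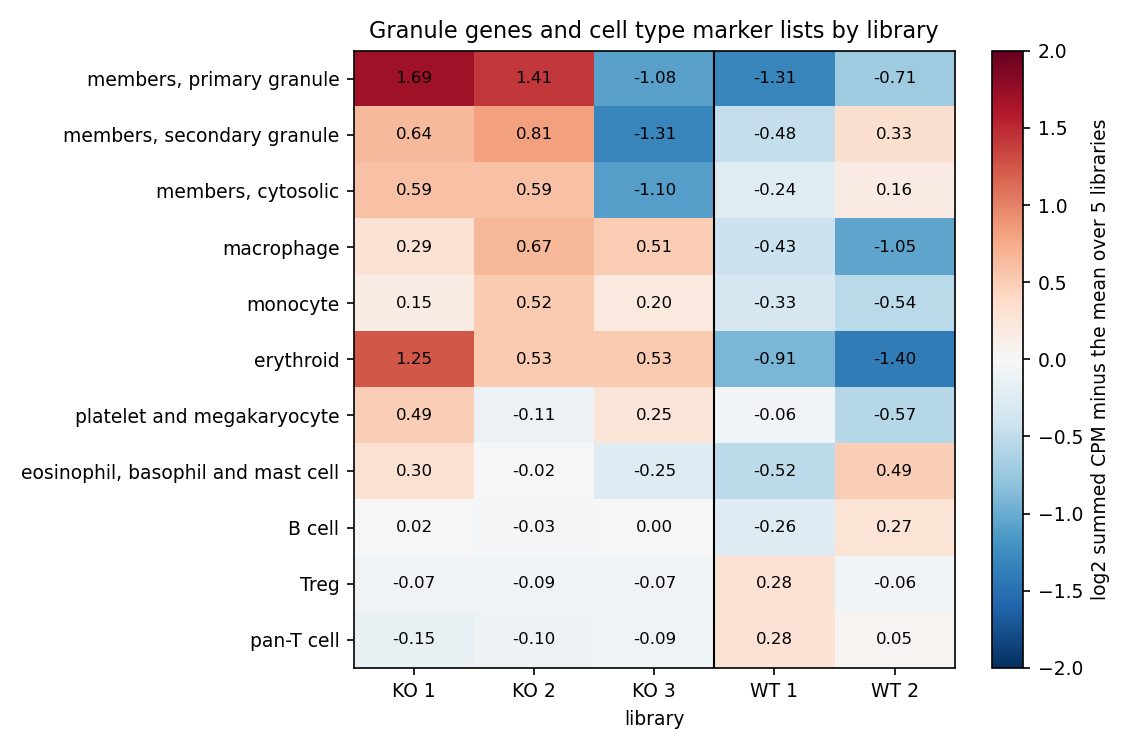
Log2 of the summed CPM of each granule class and marker list, less its mean over the 5 libraries, with KO libraries left and WT libraries right of the line. The granule classes are low in KO library 3 (−1.08 to −1.31), in which the macrophage and erythroid lists are high (0.51 and 0.53).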

How the data were processed

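Gene counts of 3 KO and 2 WT RNA-seq libraries were analysed. The labels' protocols name depletion of ribosomal RNA. Per the submitters' processing notes, Trimmomatic 0.36, STAR 2.5.2b and the build GRCm38 were used. The counting tool, the annotation and the strand setting are not stated in the sources used here. The deposited values per gene are raw counts, RPKM and TPM. TPM was used for levels between genes, RPKM was not used further, and a deposited column named CPM, treated as a score because its sums differ from 1000000, was not used.

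The counts were filtered with filterByExpr, TMM-scaled and fitted with edgeR 4.0.16 (glmQLFit, glmQLFTest, genotype only) in R 4.3.3, with Benjamini-Hochberg adjustment over 14460 genes and a false discovery rate of 0.05. CPM in the text is TMM-scaled. 1 count was worth between 0.0327 and 0.0391 CPM. Alternatives were DESeq2 1.42.0, its size factors, other filters, a replicate block, leaving out each library, other library compositions, pan-T cell scaling and robust empirical Bayes. On simulated counts for 14460 genes, the test recovered 97% of genes at or above the median level changed by 1 on the log2 scale, with 15 false calls. The median level was 21.7 CPM. Mpo, Elane, Prtn3, Ctsg, Camp and Lcn2 averaged below it in both groups, so the 97% does not apply to them. Ngp and Ltf averaged below it in WT only, at 21.5 and 17.0 CPM. The log2 fold changes of Ngp, Ltf, S100a8 and S100a9 had SEs of 0.59, 0.56, 0.51 and 0.46. Whether the 97% holds for these genes was not tested. Members, lists and rules were chosen with earlier results of these data known. The rule names all members, per further list the called genes or else the 4 most abundant, and per granule class the 3 genes of nearest profile at 1 CPM or above (prior count 2). 1 gene that the rule names is not reported here. No library was a copy of another: within groups, chi-square divided by its degrees of freedom was 16.5 or more over genes with 20 counts or more.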

Additional observations from a re-analysis of the deposited data

How the results depend on the processing

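The count of member genes called by edgeR was 0 with every alternative run, including the DESeq2 Wald test (4 members at an unadjusted p under 0.05). At that level DESeq2 had 1491 of 14460 genes higher in KO. By edgeR 1 member was higher with all libraries (1553 of 14460 genes) and 4 without a filter (1741 of 20909 genes). With the reduced gene set 3 were (1603 of 14050 genes), and with pan-T cell scaling 4 (4720 of 14460 genes). Without KO replicate 3, 9 were (1584 of 14274 genes). Without KO replicate 1 or 2, 0 were (1453 of 14372 and 1299 of 14354 genes). With the replicate block 10 were (1443 of 14460 genes). KO replicate 3 is alone in its block, so it tells nothing of genotype there. The block thus nearly repeats leaving that library out (log2 fold change of Mpo 2.61 and 2.60, of S100a8 0.70 and 0.70). Of 123 member values under alternatives, 117 kept their direction and their side of the threshold, and 7 more could not be had because the gene did not pass the filter there. The 6 that reversed came from leaving out 1 library, WT replicate 1 or KO replicate 2 for Camp and Ngp and KO replicate 1 or 2 for S100a9. Leaving out each library gave log2 fold changes from −0.19 to 0.91 for Camp, −0.078 to 0.72 for Ngp and −0.027 to 0.58 for S100a9, and from 1.64 to 2.60 for Mpo, 1.80 to 3.69 for Elane, 1.41 to 2.19 for Prtn3 and 1.27 to 2.86 for Ctsg. Elane and Ctsg could not be tested without KO replicate 1 or 2. The summed levels of the granule classes moved by less than the spread between libraries, which was wide at 0.81 to 1.27 log2 units. The direction was not stable for 1 class. The secondary granule sum went from a log2 ratio of 0.33 to −0.014 without WT replicate 1 and −0.0037 without KO replicate 2. The cytosolic sum went from 0.24 to 0.0053 without KO replicate 1 and 0.0099 without KO replicate 2. The number of genes called was 41 (33 up, 8 down) and lay between 1 and 334 when libraries were left out in turn. It was 589 without a filter, 23 with a mean of at least 50 counts, 1022 by DESeq2, 118 with antigen receptor, haemoglobin, mitochondrial and ribosomal RNA genes left out, and 1327 with pan-T cell scaling, which raised log2 changes by a median of 0.28. Calls among the other neutrophil genes numbered 4, 1, 5, 2 and 7 in these 5 settings, 2 with robust empirical Bayes, and 0 to 1 when libraries were left out. The cause of these shifts was not tested. With the replicate number of the labels as a block, 32 genes, 0 members and 0 other neutrophil genes were called, with a log2 fold change of 2.61 for Mpo (edgeR adjusted p = 0.0991). Libraries of the same number did not deviate together (correlation of deviations 0 and 0.062 for the 2 pairs), so the number was not taken as a pairing. Depth limits Elane, Prtn3 and Ctsg, which had 2 to 49 counts a library.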
